A study of Mus musculus with 2 samples.

Results

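Cytotoxic granule and natural killer (NK)-type effector genes were examined as a group of 9 genes, Gzma, Gzmb, Gzmc, Prf1, Nkg7, Ctsw, Xcl1, Klrc1 and Klrd1. They were chosen by symbol, as known granule and NK genes, out of the 27998 genes counted, and each symbol matched 1 gene of both count matrices. The choice was made with earlier results of these data known. Counts of members set beside shares of all genes are therefore description only. Wounds of 1.8 cm were made in the dorsal skin of male wild-type C57BL/6J mice aged 6 to 8 weeks. The WT_LW mice were given PBS and the TLR9agonist_LW mice ODN2395, a CpG oligonucleotide that activates Toll-like receptor 9, on days 0, 3 and 6, and the wound centre was taken 2 days after the scab came off. Cells of several mice were combined into 1 single-cell 3′ RNA library per group. No statistical test could therefore be run between the groups, and the treatment cannot be told apart from differences among the mice or in how the libraries were prepared.

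Granzymes are serine proteases stored in secretory granules, and perforin (Prf1) forms the pore through which they enter a target cell. Nkg7 is a granule membrane protein needed for release, and Ctsw (cathepsin W) is a protease typical of cytotoxic and NK cells. Xcl1 is a chemokine that draws cross-presenting dendritic cells, and Klrd1 (CD94) pairs with Klrc1 (NKG2A) into an inhibitory receptor for non-classical class I molecules. In skin, such genes are known from resident CD8 T cells, NK cells and related innate lymphoid cells, and Gzmb also from activated regulatory T cells and mast cells.

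After filtering, 10395 cells of WT_LW, with a median of 5519 unique molecular identifiers (UMIs), and 11811 cells of TLR9agonist_LW, with a median of 6080, were used. Cells were sorted by computation with marker genes other than the 9, and those with markers of more than 1 lineage, 25.3% of WT_LW and 37.0% of TLR9agonist_LW, were left out as mixed. Of the cells with T cell markers, 3380 and 3575, 22.2% and 41.6% were left out in this way. Keratinocyte markers were carried by 4.62% and 25.3% of them, and fibroblast markers by 14.0% and 22.2%. The remaining T cells numbered 2628 and 2087. They held 321 and 123 Cd8 T cells, 986 and 426 Cd4 helper T cells, 233 and 92 regulatory T cells (Treg, Foxp3), and 375 and 953 γδT17-type cells. The last are T cells with genes of the IL-17-producing γδ lineage, among them Cd163l1, Blk or Sox13, and without Cd4 or Cd8, and they made up 14.3% of the T cells in WT_LW and 45.7% in TLR9agonist_LW. NK cells, with NK receptor genes and no Cd3 gene, numbered 50 and 14. The libraries shared 33 barcodes among the cells used. Levels are UMIs of a gene per 1000000 UMIs of the gated cells (CPM), and all 95% intervals are exact and cover counting error only. UMIs count 1 end of a transcript and were not scaled by length, so levels are compared between cell types and libraries, not between genes.

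Promoter sequences of the 3 members with the highest ratios in γδT17-type cells are shown, from 250 bases before to 50 bases after the transcription start, because their levels are the ones that differed together there. RefSeq entries on GRCm38.p6 were at hand for 7 of the 9 members, Ctsw and Klrd1 having none, and all 3 genes lie on the minus strand. Capitals mark the RUNX core TGTGGT, which reads as ACCACA on the opposite strand, and, in Gzmb, the AP-1 motif TGANTCA. The Gzmb window is chr14:56262285-56262584, the Gzmc window chr14:56234608-56234907 and the Klrc1 window chr6:129678924-129679223, each read 5′ to 3′ on the gene's strand.
Gzmb: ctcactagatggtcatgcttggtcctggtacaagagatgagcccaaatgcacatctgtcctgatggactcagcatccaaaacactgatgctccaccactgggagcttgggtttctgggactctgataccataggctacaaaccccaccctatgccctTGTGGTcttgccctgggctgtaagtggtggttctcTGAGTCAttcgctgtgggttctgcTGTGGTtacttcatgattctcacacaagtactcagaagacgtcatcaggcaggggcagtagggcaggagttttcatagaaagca
Gzmc: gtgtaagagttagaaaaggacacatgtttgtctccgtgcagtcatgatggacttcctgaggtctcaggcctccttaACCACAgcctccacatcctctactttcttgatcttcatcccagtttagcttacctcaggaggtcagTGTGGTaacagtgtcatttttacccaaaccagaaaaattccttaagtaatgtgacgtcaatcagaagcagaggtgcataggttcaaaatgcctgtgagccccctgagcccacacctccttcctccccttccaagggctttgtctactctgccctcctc
Klrc1: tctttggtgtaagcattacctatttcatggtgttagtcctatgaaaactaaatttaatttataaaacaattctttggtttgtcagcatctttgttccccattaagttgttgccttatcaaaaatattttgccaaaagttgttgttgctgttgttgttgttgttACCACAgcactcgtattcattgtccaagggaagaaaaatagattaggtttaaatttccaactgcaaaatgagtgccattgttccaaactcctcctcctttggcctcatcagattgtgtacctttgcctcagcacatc

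With each motif searched on both strands, the RUNX core was in 7 of the 7 member promoters and in 16.8% of 32851 promoters of this length. The AP-1 motif was in 1 of 7, that of Gzmb, against 7.81% of all promoters. The T-box motif GGTGTGA was in 2 of 7, Nkg7 and Xcl1, against 3.98%. These are matches of letters in a short window and not binding sites, and no binding was measured.

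Summed over the 9 genes, the level in all T cells was 1166 CPM in WT_LW and 1211 CPM in TLR9agonist_LW, a log2 ratio of 0.06 (95% interval 0.02 to 0.09). These near-equal sums held members with ratios of opposite sign. Counting a log2 ratio of at least 1 either way, Gzmb and Klrc1 were higher in TLR9agonist_LW, 2 of 9 members, against 4.18% of all 10882 genes with enough UMIs. Nkg7, Xcl1 and Klrd1 were lower, 3 of 9, against 11.9% of all genes. The median gene of the T cells stood at a log2 ratio of -0.25, and it stood at -0.14 in γδT17-type cells, -0.05 in Cd8 T cells, -0.05 in Treg, -0.16 in Cd4 helper T cells and 0.02 in NK cells. No member changed its direction in T cells when ratios were taken relative to the median gene, apart from Prf1, which went from -0.15 to 0.10.

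Part of the T cell totals followed the make-up of the T cells. The γδT17-type cells held 6.62% of the T cells' Gzmb UMIs in WT_LW and 61.0% in TLR9agonist_LW, and for Klrc1 these shares were 4.18% and 33.0%. The Cd8 T cells, which held 83.5% and 83.0% of the Gzma UMIs, made up 12.2% of the T cells in WT_LW and 5.89% in TLR9agonist_LW. With each T subset of TLR9agonist_LW weighted as in WT_LW, a calculation added after the data were seen, the log2 ratio of Gzmb in T cells was 1.29 instead of 1.65 and that of Klrc1 was 1.28 instead of 1.09. The ratio of Gzma was then -0.14 instead of -0.96, that of Nkg7 -0.70 instead of -1.42 and that of Gzmc -0.07 instead of 0.40. Without the 5 highest cells of each library, the ratio of Gzmc in T cells was 1.51 and that of Xcl1 was -1.16 instead of -2.25. With the T subsets weighted as in WT_LW, the ratio of Xcl1 was -1.68 instead of -2.25 and that of Klrd1 was -1.35 instead of -2.04. In such sums, fewer cells of a type and less RNA per cell cannot be told apart.

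Gzmb, which encodes granzyme B, showed the largest ratio among the members of γδT17-type cells with at least 50 UMIs. Its level there was 93.5 CPM in WT_LW (150 UMIs) and 771 CPM in TLR9agonist_LW (3338 UMIs), a log2 ratio of 3.04 (2.81 to 3.29), or 3.18 relative to the median gene. A Gzmb UMI was found in 16.3% of these cells in WT_LW (12.7 to 20.4) and in 39.8% in TLR9agonist_LW (36.6 to 43.0). After thinning each cell to 1500 UMIs, the shares were 9.84% and 27.8%. Both the share of positive cells and the amount per cell were higher, since 0.533% of the cells in WT_LW and 10.9% in TLR9agonist_LW held 10 or more Gzmb UMIs. The highest cell held 14 UMIs in WT_LW and 93 in TLR9agonist_LW. In the γδT17-type cells of TLR9agonist_LW, those with cell cycle genes had less Gzmb, 171 CPM in 18 cells, than the other 935 cells, at 791 CPM. In WT_LW the order was the other way, with 143 CPM in 21 cells and 88.0 CPM in the other 354. The former rested on 23 UMIs, and the intervals, 90.6 to 214 CPM and 73.4 to 105 CPM, overlapped.

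**Figure D1:**
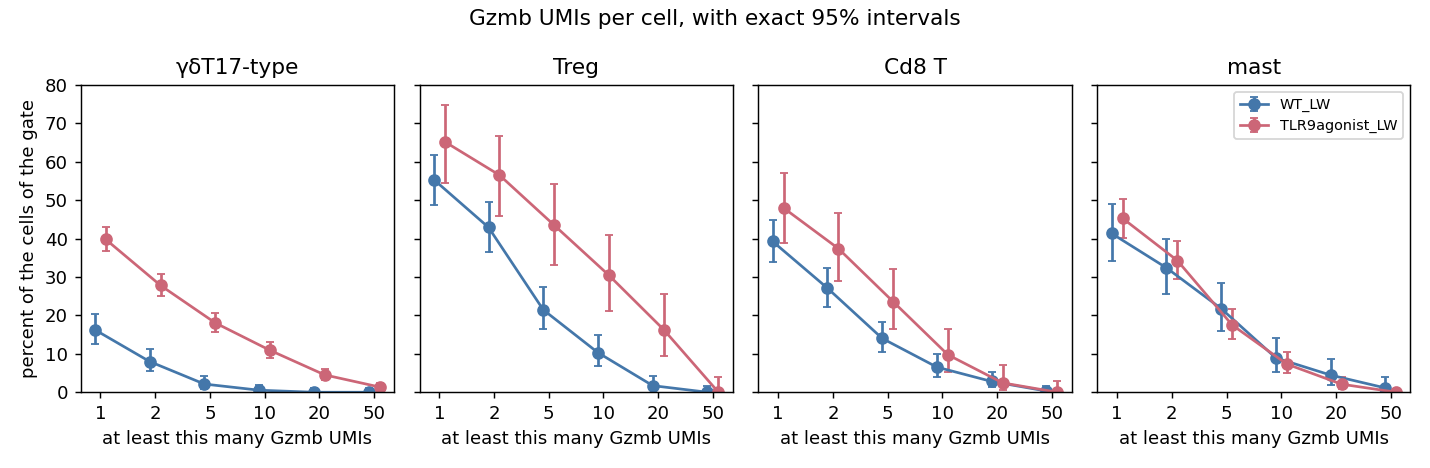
Percent of γδT17-type, Treg, Cd8 T and mast cells with at least the number of Gzmb UMIs on the horizontal axis, in WT_LW and TLR9agonist_LW, with exact 95% intervals as error bars. The γδT17-type line of TLR9agonist_LW lies above that of WT_LW at each number shown, with 10.9% against 0.533% of the cells at 10 UMIs, and the mast cell lines overlap.

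Treg, which are known to use granzyme B in suppression, had 551 CPM of Gzmb with PBS and 1380 CPM with the agonist, a log2 ratio of 1.32 (1.17 to 1.48). The share of Treg with a UMI was 55.4% and 65.2%, and 37.0% and 55.4% after thinning to 1500 UMIs. In Cd8 T cells the level was 509 CPM and 584 CPM, a log2 ratio of 0.20 (0.01 to 0.38), with a UMI in 39.3% and 48.0% of the cells. Cd4 helper T cells had the lowest T cell levels, 30.4 CPM and 56.3 CPM (log2 ratio 0.89), and the T cells of no named subset had 141 CPM and 412 CPM (1.55). NK cells stood at 226 CPM and 208 CPM, on 60 and 14 UMIs, and their interval of -1.07 to 0.74 included no difference.

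Mast cells, gated by proteases and receptors other than granzymes, were the highest Gzmb gate of WT_LW, at 1114 CPM, and had 1274 CPM in TLR9agonist_LW (log2 ratio 0.19, 0.05 to 0.34). In TLR9agonist_LW, Treg and mast cells did not differ beyond counting error (log2 ratio of Treg over mast cells 0.11, -0.03 to 0.26), with γδT17-type cells next in order and Cd8 T cells after them. In WT_LW the γδT17-type cells were the seventh of the 8 T, NK and mast gates. The 6 background gates, such as fibroblasts and endothelial cells, held 2.30 to 6.76 CPM in WT_LW and 2.73 to 25.9 CPM in TLR9agonist_LW. A Gzmb UMI was found in 4.72% and 7.11% of fibroblasts, whose median depths were 12804 and 10479 UMIs, against 4090 and 4385 UMIs in γδT17-type cells. At 1500 UMIs per cell, the fibroblast shares were 1.20% and 1.88%.

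The γδT17-type cells also held RNA of other cells, which was measured beside Gzmb. The mast cell protease Cma1 stood at 29.3 CPM in these cells of WT_LW and at 20.6 CPM in TLR9agonist_LW. At the ratio of Gzmb to Cma1 in mast cells, that amount would come with 1.17 CPM and 1.66 CPM of Gzmb. Whether mast cell RNA found in other gates holds both genes at that ratio was not tested. The 7 keratinocyte markers, all 7 with a UMI in both libraries, summed to 191 CPM and 498 CPM in γδT17-type cells, and the 6 fibroblast markers to 276 CPM and 489 CPM. Keratinocytes themselves had a Gzmb UMI in 2.71% and 3.22% of cells thinned to 1500 UMIs. The 6 NK markers summed to 2.49 CPM and 1.16 CPM in γδT17-type cells, with Ncr1 and Klra4 at 0 in both, where 3 UMIs would be 1.87 CPM and 0.693 CPM. With mixed cells kept, the log2 ratio of Gzmb was 2.11 in γδT17-type cells (143 CPM against 614 CPM) and 0.88 in Treg (467 CPM against 858 CPM). When Il17a was left out of the gate, the γδT17-type levels were 96.8 CPM and 787 CPM.

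**Figure D2:**
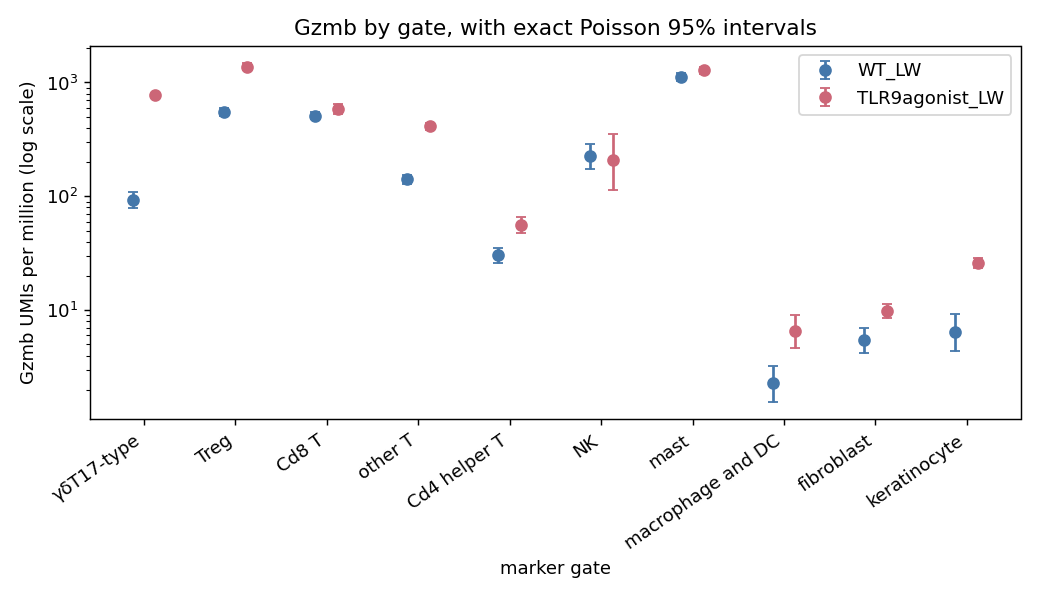
Gzmb level in CPM on a log axis for 10 gates in WT_LW and TLR9agonist_LW, with exact Poisson 95% intervals as error bars. The γδT17-type level goes from 93.5 to 771 CPM, the Treg level from 551 to 1380 CPM, and within the mast cell gate and within the Cd8 T gate the 2 libraries lie close together.

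In γδT17-type cells, 3 of the 4 members with at least 50 UMIs were higher in TLR9agonist_LW, against 5.33% of 7541 genes, and 1, Ctsw, was lower, against 16% of genes. The limit of 50 ran over both libraries, and this gate held 1603894 UMIs in WT_LW and 4328500 in TLR9agonist_LW. Gzmc passed it through TLR9agonist_LW, with 28 and 396 UMIs. Xcl1, with 10 and 2 UMIs, and Klrd1, with 15 and 8, had ratios below 0 but were not counted. Gzmc, a granzyme of NK and activated CD8 cells, stood at 17.5 CPM and 91.5 CPM, a log2 ratio of 2.39 (1.84 to 3.00), with a UMI in 2.93% and 6.72% of the cells. Its ratio was 3.55 without the 5 highest cells of each library. Granzymes b and c are close copies within 1 gene cluster, and whether this affected their counts was not tested. Of the UMIs of Gzma, Gzmb and Gzmc, Gzmc made up 15.3% and 10.5% in γδT17-type cells. It made up 5.88% and 0.571% in Treg, and 1.39% and 0.323% in mast cells. Klrc1 stood at 49.3 CPM and 236 CPM, a log2 ratio of 2.26 (1.93 to 2.61), and was found in 14.1% and 34.7% of the cells, or 6.56% and 19.5% after thinning. The 6 background gates held a median of 2.56 CPM and 4.50 CPM of Klrc1. Its near copy Klrc2, which encodes an activating receptor, went from 37.4 CPM to 73.0 CPM.

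Ctsw differed the other way in the same cells, where WT_LW had 76.1 CPM and TLR9agonist_LW 32.8 CPM (log2 ratio -1.21, -1.57 to -0.85), and a UMI was found in 22.7% and 11.2% of the cells. The other 5 members were near the limit of detection in γδT17-type cells. Prf1 had 4 and 16 UMIs, which is 2.49 CPM and 3.70 CPM, and Gzma had 3.12 CPM and 5.31 CPM. Nkg7 stood at 8.73 CPM and 5.08 CPM, Xcl1 at 6.23 CPM and 0.462 CPM, and Klrd1, the partner of Klrc1, at 9.35 CPM and 1.85 CPM. In the 6 background gates Prf1 lay between 0 and 0.278 CPM and Nkg7 between 0 and 10.6 CPM over both libraries, so the Nkg7 level of γδT17-type cells was within that of background in WT_LW.

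Cell by cell, after thinning to 1500 UMIs, 263 γδT17-type cells of TLR9agonist_LW had Gzmb. Of these, 74 (28.1%, 22.8 to 34.0) also had Klrc1, against 16.2% (13.5 to 19.2) of the 684 cells without Gzmb. Gzmc was found in 24 of the 263 (9.13%) and in 2.05% of the others. Prf1, Nkg7 and Xcl1 were found in 0 of the 263, which allows a share of up to 1.14% each, and Klrd1 in 1. Of the 684 cells without Gzmb, Prf1 was found in 6, Nkg7 in 4, and Xcl1 and Klrd1 in 0. Counting cells with any of the 3 granzymes, without thinning, Prf1 was found in 3 of 70 granzyme-positive γδT17-type cells of WT_LW and in 6 of 395 of TLR9agonist_LW. In γδT17-type cells without a granzyme it was found in 1 of 305 and 9 of 558. For Cd8 T cells without a granzyme these shares were 8.19% and 6.90%, and for NK cells 2 of 10 and 1 of 4. The share was 20.7% and 23.1% of granzyme-positive Cd8 T cells and 37.5% and 40% of granzyme-positive NK cells. In Treg it was 0 of 130, which allows a share of up to 2.31%, and 1 of 61. In mast cells it was 0 of 81 and 0 of 177, which allows up to 3.70% and 1.69% of cells with a UMI at median depths of 2145 and 1584.5 UMIs, not of cells expressing the gene.

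**Figure D3:**
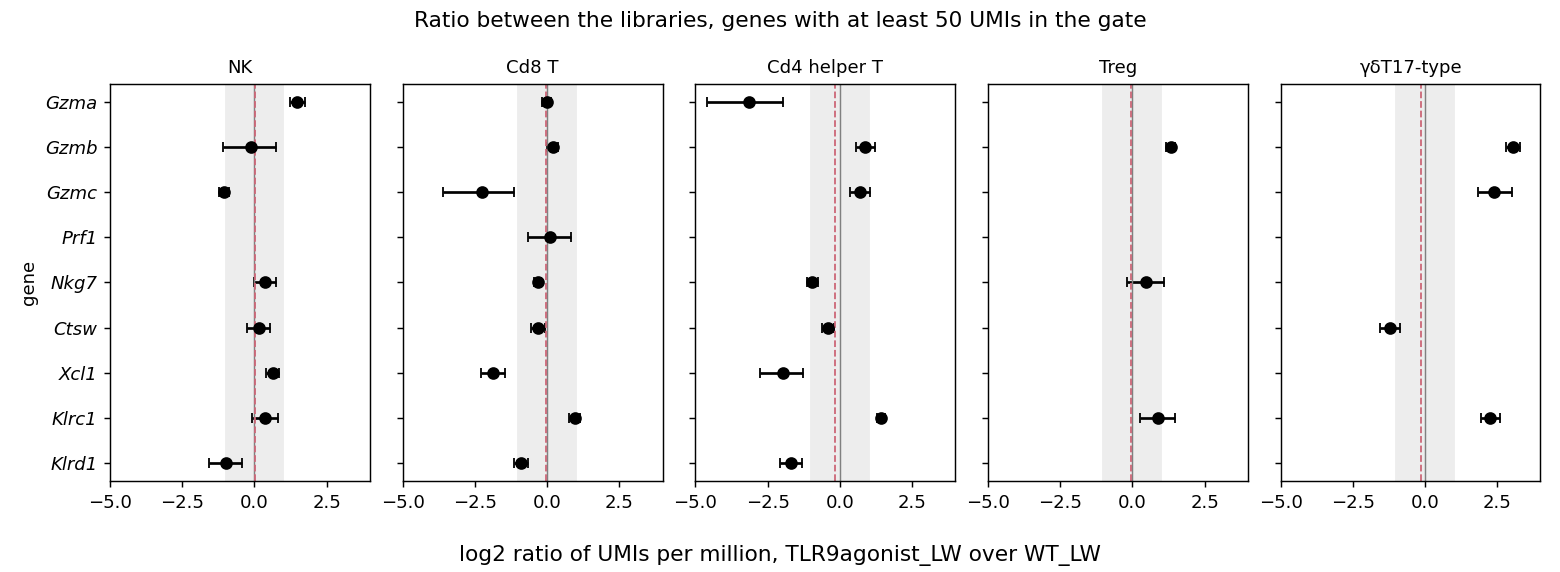
Log2 ratio of TLR9agonist_LW to WT_LW for each member with at least 50 UMIs in a gate, with exact 95% intervals. The grey band spans -1 to 1 and the red dashed line is the median gene of the gate. Gzmb, Gzmc and Klrc1 lie above the band in γδT17-type cells, and Klrd1 and Xcl1 lie below 0 in each T gate where they are drawn.

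In Cd8 T cells each of the 9 members had UMIs in both libraries. None of the 9 members was higher by a log2 ratio of at least 1, against 1.88% of 4934 genes, and 2, Gzmc and Xcl1, were lower, against 7.99%. Gzma, granzyme A, stood at 812 CPM and 803 CPM (log2 ratio -0.02, -0.17 to 0.14) and was found in 16.8% and 22.8% of the cells. With mixed cells kept, Gzma was 794 CPM and 485 CPM, a log2 ratio of -0.71, and in cells without cell cycle genes it was 580 CPM and 883 CPM, so its direction depended on the cells counted. Prf1 stood at 36.4 CPM and 39.2 CPM (0.11, -0.65 to 0.82), and its ratio was -0.81 after thinning to 1500 UMIs. Nkg7 was in most of the cells, 88.8% and 84.6%, at 1274 CPM and 1015 CPM (-0.33, -0.46 to -0.20). Ctsw stood at 399 CPM and 322 CPM (-0.31).

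Gzmb was found in a larger share of the Cd8 T cells with Gzma than of those without. In thinned cells of WT_LW, 54.3% of those with Gzma also had Gzmb, against 21.5% of those without, and in TLR9agonist_LW these shares were 75.0% and 34.0%. The 5 cells with the most Gzma held 52.2% of its UMIs in WT_LW and 59.8% in TLR9agonist_LW. The 5 with the most Gzmb held 29.2% and 28.2% of the Gzmb UMIs. The lower Xcl1 of Cd8 T cells, 332 CPM against 91.4 CPM, also rested on few cells. In WT_LW, 412 of its 511 UMIs lay in 5 cells and 324 in 1, and without the 5 highest cells of each library the log2 ratio was -0.27 instead of -1.86. Gzmc in Cd8 T cells was 54.5 CPM and 11.4 CPM, the latter from 7 UMIs, and its log2 ratio was -1.24 instead of -2.25 without the 5 highest cells.

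Klrd1 and Klrc1, whose proteins form 1 receptor, had ratios of opposite sign in the T cells. Klrd1 was lower in TLR9agonist_LW in Cd8 T cells, 486 CPM against 260 CPM (log2 ratio -0.91, -1.16 to -0.66), and the share of cells with a UMI was 73.2% and 52.8%. In Cd4 helper T cells it was 85.1 CPM and 26.4 CPM (-1.69, -2.08 to -1.32), and in T cells of no named subset 128 CPM and 35.4 CPM (-1.85). Klrc1 was higher in each of these gates, at 395 CPM and 764 CPM in Cd8 T cells (0.95, 0.78 to 1.13), 126 CPM and 339 CPM in Cd4 helper T cells (1.43, 1.28 to 1.57), and 132 CPM and 312 CPM in the others (1.24). In Cd8 T cells the share with Klrc1 was 67.0% and 81.3%. Klrc1 and Klrc2 share much of their sequence, and Klrc2 in Cd8 T cells was 167 CPM and 118 CPM.

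In Cd4 helper T cells, 1 of the 8 members with enough UMIs was higher, Klrc1, against 2.66% of 8642 genes, and 3 were lower, Gzma, Xcl1 and Klrd1, against 8.22%. The Gzma ratio of -3.13 came from 1 cell of WT_LW that held 107 of 119 UMIs, and without the 5 highest cells of each library it was -0.40. For Xcl1, at 28.2 CPM and 7.19 CPM, the log2 ratio without these cells was -0.26. Nkg7 stood at 227 CPM and 117 CPM (log2 ratio -0.95, -1.14 to -0.76). In Treg, 1 of 3 members was higher, Gzmb, against 2.88% of 4544 genes, and 0 were lower, against 6.76%. Nkg7 in Treg was 48.6 CPM and 67.4 CPM (0.47, -0.18 to 1.10), and Klrc1 43.1 CPM and 79.3 CPM (0.88, 0.25 to 1.49).

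A small gate of T cells with Itgae and Fcer1g and without Cd4, Cd8, Foxp3 or enough γδT17 genes had 37 cells in WT_LW and 20 in TLR9agonist_LW. Nkg7 stood at 1270 CPM and 429 CPM (log2 ratio -1.57, -2.08 to -1.08, and -0.61 after thinning), Ctsw at 593 CPM and 140 CPM (-2.09), and Klrd1 at 780 CPM and 189 CPM (-2.04, -2.82 to -1.34, and -5.70 without the 5 highest cells). The 5 cells left out were a larger part of the 20 cells of TLR9agonist_LW than of the 37 of WT_LW. The NKG2A gene Klrc1 was 148 CPM and 289 CPM (0.96, 0.12 to 1.82). Gzma was at 0 UMIs in both libraries in this gate, which allows up to 19.3 CPM and 29.9 CPM.

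Among the T and NK gates, NK cells had the highest summed level of the 9 genes, 16401 CPM in WT_LW and 15170 CPM in TLR9agonist_LW (log2 ratio -0.11, -0.21 to -0.01). The sign of this ratio turned with equal weight per cell (0.13) and after thinning (0.19). Of the 8 members counted, 1 was higher, Gzma, against 4.26% of 939 genes, and 1 was lower, Gzmc, against 8.09%. Gzma was 1194 CPM and 3346 CPM (1.49, 1.23 to 1.74), with 14 of 50 and 8 of 14 cells positive, and the ratio was 0.68 without the 5 highest cells of each library. These 5 were a larger part of the 14 cells of TLR9agonist_LW than of the 50 of WT_LW. Xcl1 was 2191 CPM and 3421 CPM (0.64, 0.42 to 0.87), in 82% and 92.9% of the cells, but with a wider gate of 109 and 33 cells its ratio was -0.06. Klrd1 was 904 CPM and 461 CPM (-0.97, -1.56 to -0.43), and its ratio was -0.31 after thinning. Klrc1 was 674 CPM and 877 CPM, an interval of -0.07 to 0.81. Nkg7, at 975 CPM and 1264 CPM, and Ctsw, at 892 CPM and 996 CPM, were found in at least 88% of the NK cells of each library.

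In WT_LW, Gzma and Gzmc were mostly found in different NK cells. After thinning, Gzmc was found in 1 of 13 cells with Gzma and in 19 of 35 without, and Xcl1 in 5 of 13 and 30 of 35. Gzmc stood at 9281 CPM in WT_LW, with 25 of 50 cells positive, and at 4476 CPM in TLR9agonist_LW, where all 301 UMIs lay in 2 of 14 cells. With at least 3 NK markers required, which left 20 and 8 cells, Gzmc was 6292 CPM in WT_LW and 0 UMIs in TLR9agonist_LW. Gzma was then 3060 CPM and 6961 CPM. With 14 cells in TLR9agonist_LW, the make-up of the NK gate could not be compared closely.

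Among the 6 background gates, which leave out mast cells, macrophages and dendritic cells had the highest level of Klrd1 in both libraries. It stood at 65.7 CPM and 49.3 CPM in macrophages and dendritic cells, a log2 ratio of -0.41 (-0.61 to -0.22). Within this gate it followed Flt3, a dendritic cell receptor gene, with 200 CPM in Flt3-positive cells of WT_LW against 30.3 CPM in the others, and 133 CPM against 36.3 CPM in TLR9agonist_LW. A Klrd1 UMI was found in 61.6% and 61.3% of the Flt3-positive cells and in 10.8% and 10.1% of the others. By level, cells with Clec10a or Itgax also had more Klrd1 than those without, 122 against 42.3 CPM and 91.0 against 38.1 CPM in WT_LW. Cells with Xcr1, a further dendritic cell gene, had less by level, 44.5 against 66.5 CPM in WT_LW and 33.7 against 50.1 CPM in TLR9agonist_LW. Their intervals, 27.2 to 68.7 CPM and 15.4 to 63.9 CPM, included the level of the other cells. For Clec9a the level was 64.2 against 65.8 CPM in WT_LW and 87.7 against 48.2 CPM in TLR9agonist_LW. The share of cells with a Klrd1 UMI was higher with Xcr1, 27.3% against 18.8% in WT_LW and 30% against 14.4% in TLR9agonist_LW. With Clec9a it was 35% against 18.5% and 38.5% against 14.4%. Cells with Xcr1 or Clec9a were few, 33 and 40 in WT_LW and 20 and 13 in TLR9agonist_LW. Gzmc was listed at 68.4 CPM in fibroblasts of WT_LW, where 668 of 761 UMIs lay in 2 cells. Of these UMIs 737 lay in cells with a UMI of the leukocyte gene Ptprc, and the other fibroblasts held 2.94 CPM.

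The other granule, receptor and effector genes were taken from a list of 65, also chosen with earlier results of these data known. In γδT17-type cells 39 had enough UMIs, of which 8 were higher, against 5.33% of all genes, and 6 lower, against 16%, with a median log2 ratio of 0.01 beside -0.30 over all 7541 genes. Among those higher were Srgn, the proteoglycan that holds granzymes in the granule, at 1508 CPM and 5006 CPM (log2 ratio 1.73), and Stx11, a syntaxin of granule release, at 113 CPM and 778 CPM (2.78). Serpinb6b, of a family of granzyme inhibitors, was 34.9 CPM and 76.0 CPM (1.12), and the cytokine gene Csf2 18.1 CPM and 176 CPM (3.28). Il2ra and Il2rb, chains of the IL-2 receptor, were 335 CPM and 911 CPM (1.44) and 163 CPM and 384 CPM (1.23). The transcription factor genes Zeb2 and Nfil3 were also higher, with ratios of 2.15 and 1.18.

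The listed genes that were lower in γδT17-type cells of TLR9agonist_LW, a share close to that of all genes, were Rab27a, which docks cytotoxic granules at the membrane, at 86.7 CPM and 24.3 CPM (log2 ratio -1.84), and Lyst (-1.27), which shapes lysosome-related granules. The receptor genes Il18r1, 372 CPM and 144 CPM (-1.37), Il12rb1 (-1.81), Cd226 (-1.56) and Klrb1f (-1.61) were the others. Ifng was 11.8 CPM and 2.31 CPM, but with 19 and 10 UMIs it was under the limit and not counted. In Cd8 T cells 1 of 43 listed genes was higher (all genes 1.88%), Stx11 at 39.6 CPM and 86.5 CPM (1.13), and 3 were lower (all genes 7.99%), Tnf (-2.28), Ccl4 (-1.85) and Tyrobp (-1.13). In Treg, 2 of 32 were higher (all genes 2.88%), Ccl5 at 129 CPM and 476 CPM (1.88) and Serpinb6b (1.25), and 3 were lower (all genes 6.76%), Rab27a (-1.42), Prdm1 (-1.17) and Il12rb1. Of 23 in NK cells, 1 was higher (all genes 4.26%), Ccl5 at 1811 CPM and 4313 CPM (1.25), and 2 were lower (all genes 8.09%), Ccl3 (-2.33) and Ccl4 (-1.41). The difference of these ratios between gates was not tested.

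Likeness to the members was described over 32 points, 16 gates in each of 2 libraries, among 13400 genes, by the Pearson correlation of log2(CPM + 1). The points share libraries and depth. The genes most like the sum of the 9 were Hcst (r = 0.892), Ikzf1 (0.890), Gpr183 (0.889), Klrc2 (0.886) and Txk (0.883). Gzmb was most like Sytl3 (0.912), a binding partner of Rab27 proteins, and Cst7 (0.893), an inhibitor of granule cathepsins. Gzma was most like Gzmk (0.897), Prf1 like Cd160 (0.955), Xcl1 like Cd160 (0.934), Klrc1 and Ctsw like Klrc2 (0.943 and 0.935), Gzmc like Klrb1f (0.873), Nkg7 like Ms4a4b (0.907) and Klrd1 like Klrk1 (0.872).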

How the data were processed

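Gene expression was measured by droplet single-cell RNA sequencing (10x Genomics, 3′ chemistry) in 2 libraries, WT_LW and TLR9agonist_LW, each holding cells of several mice. The values deposited by the authors are counts of UMIs, not normalized, for each gene in each barcode that Cell Ranger 4.0.0 (named in the file headers) took to be a cell. The submitters' processing notes name mm9 as genome build, so no coordinates were taken from the counts, and the promoter windows come from RefSeq on GRCm38.p6. The 12800 barcodes of WT_LW held 99374045 UMIs and the 13751 barcodes of TLR9agonist_LW held 132339022 UMIs. The sets shared 47 barcodes.

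A cell was kept when it had 500 or more UMIs, 300 or more genes and no more than 15% mitochondrial UMIs, which left 11443 and 13206. Scrublet's own threshold called 0 doublets, so the cells with the highest scores, at 0.8% per 1000 cells, were removed, 1048 and 1395. T cells had at least 2 of Cd3d, Cd3e and Cd3g, and NK cells at least 2 of 6 NK receptor and factor genes and no Cd3 gene. Subsets used Foxp3, Cd4, Cd8b1 and Cd8a, γδT17 genes, and Itgae with Fcer1g. The other types needed at least 3 of their markers. No member was used in a gate. T cell receptor genes were left out of the report.

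UMIs were summed per gate and library and given as CPM. Levels carry exact Poisson, shares exact Clopper-Pearson and ratios exact conditional binomial 95% intervals, none of which covers variation between mice. A gene was counted as higher or lower at a log2 ratio of at least 1 either way with at least 50 UMIs in the gate over both libraries. At 0 counts the limit given is 3 counts. Median genes were taken over genes with at least 200 UMIs in the gate. Detection was also compared at 1500 and 3000 UMIs per cell, leaving out shallower cells. The text names all 9 members, listed genes past the ratio of 1 and the genes most alike, by Pearson correlation over gates with at least 10 cells. The members and lists were chosen with earlier results of these data known. Alternatives covered the filter, doublets, gates, mixed cells, weighting per cell, thinning, the 5 highest cells and subtraction of the fibroblast level. The 5 highest cells left out of a gate were those with the most UMIs summed over the 9 members. Only the ratio and its interval were tested on simulated data, Poisson counts with known folds. Such counts lack the uneven spread over cells seen here, and the gates, thinning and other steps were not tested. Counts were handled in scanpy 1.11.5 and anndata 0.12.19, intervals were computed with scipy 1.17.1, and figures were drawn with matplotlib 3.10.9, under Python 3.11.15 with pandas 2.3.3 and numpy 2.4.6.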

Additional observations from a re-analysis of the deposited data

Results flagged for a closer look

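Gzma had a log2 ratio of 1.49 in NK cells and of -3.13 in Cd4 helper T cells, with intervals on opposite sides of 0. The latter rested on 1 cell of WT_LW. Gzmc had a log2 ratio of 2.39 in γδT17-type cells and of -2.25 in Cd8 T cells, the latter on 84 and 7 UMIs. With 1 library per group, neither difference between cell types was tested.

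The cells that met no gate, 11.7% of WT_LW and 8.63% of TLR9agonist_LW, held members above the highest of the 6 background gates. In WT_LW and TLR9agonist_LW, these ungated cells had Gzmb at 89.0 CPM and 262 CPM, Gzmc at 660 CPM and 23.03 CPM, Nkg7 at 139 CPM and 38.1 CPM, and Ctsw at 175 CPM and 58.1 CPM. Xcl1 stood at 318 CPM and 47.9 CPM and Klrc1 at 99.6 CPM and 138 CPM. Gzma was 23.4 CPM in the ungated cells of WT_LW and 10.2 CPM, on 27 UMIs, in those of TLR9agonist_LW, both above the background gates. Klrd1 was 154 CPM in WT_LW, above them, and 40.8 CPM in TLR9agonist_LW, where macrophages and dendritic cells had 49.3 CPM. The ungated cells of WT_LW held 28.8% of that library's Gzmc UMIs in the cells used.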

How the results depend on the processing

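Over 58 log2 ratios of members and their sums, 514 alternatives were computed, of which 398 stayed within the interval given, 113 moved outside it, some of them to the other side of 0, and 3 turned the sign of a ratio of at least 1 either way. The 28 ratios of at least 1 either way kept their direction in 241 of 244 alternatives, and 19 of the 241 were under 1. The sum of the members in T cells (0.06) was -0.062 with mixed cells kept, -0.26 with all 3 Cd3 genes required, 0.31 relative to the median gene, 0.14 without the 5 highest cells, 0.16 with the fibroblast level subtracted and 0.16 with the T subsets weighted as in WT_LW. In Cd8 T cells (-0.14) it was -0.30 with mixed cells kept, -0.0084 with equal weight per cell, -0.019 with Cd8a also required and 0.0032 after thinning. In NK cells (-0.11) it was 0.13 with equal weight per cell, 0.19 after thinning, -0.34 without the 5 highest cells and -0.58 with 1 NK marker and up to 1 Cd3 gene allowed. Leaving out 5 cells took a larger part of the 14 NK cells of TLR9agonist_LW than of the 50 of WT_LW. The thinned ratios, the wider NK gate and the subset weights were chosen after seeing the data. Gzmb in γδT17-type cells (3.04) was 2.11 with mixed cells kept and 3.31 without the 5 highest cells. The 3 turned ratios were Gzmc in Itgae Fcer1g T cells, -0.47 without the 5 highest cells instead of 1.39, and Gzmc in T cells of no named subset, 1.49 without them and 0.41 with the fibroblast level subtracted instead of -1.77. In the latter gate, 244 of 270 UMIs of WT_LW lay in 1 cell. The Gzmc level subtracted for WT_LW was that of all its gated fibroblasts, 68.4 CPM. Of those 761 fibroblast UMIs, 737 lay in cells with a UMI of Ptprc, and the other fibroblasts held 2.94 CPM. For the settings without the 5 highest cells and with changed gates, fewer or other cells enter, and for the other moves the cause was not tested. Ratios of Xcl1 fell under 1 without the 5 highest cells in Cd8 (-0.27), Cd4 helper (-0.26) and unnamed T cells (-0.31), and Xcl1 in Cd8 T cells was -0.89 with equal weight per cell. Gzma in NK cells was 0.94 with equal weight per cell, and Klrc1 in T cells 0.92 with all 3 Cd3 genes required. For levels and shares, 92 of 174 alternatives stayed within the interval. No paired analysis was possible because each group has 1 library, and no replicate could be left out. Depth limits Prf1 in Treg, γδT17-type and mast cells and all members in the 14 NK cells of TLR9agonist_LW.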
